A study of Mus musculus with 29 samples.

Results

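Conventional CD4+ T cells (Tcon) grown with TGF-beta and lactic acid for 72 h were compared with Tcon grown for the same time with TGF-beta alone. The 6 libraries were chosen by their titles, 3 in each group, and paired by replicate number, out of 29 libraries in the series. All cells were CD4+ T cells from the spleens of C57BL/6-Foxp3tm1Flv/J mice, in which a red fluorescent protein (RFP) reports the expression of Foxp3. They were stimulated in RPMI with 0.5 mM glucose, 50 IU/ml IL-2, anti-CD3 at 1.25 ug/ml and anti-CD28 at 2.5 ug/ml, and all 6 cultures held TGF-beta at 3 ng/ml. The lactic acid group also held 10 mM lactic acid. At 72 h the cells were sorted by flow cytometry, and the RFP-negative ones were sequenced as Tcon. Replicate 1 of each group came from a male mouse and replicates 2 and 3 from female mice. The age of the mice is not given in the sources used here. The sorting gate limits what Tcon stands for, because TGF-beta induces Foxp3 and cells that had become RFP-positive were removed from both groups.

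Lactic acid is the end product of glycolysis and accumulates in inflamed and tumour tissue, where T cells take it up through proton-coupled monocarboxylate transporters. TGF-beta together with IL-2 and T cell receptor signals turns naive CD4+ T cells into induced regulatory T cells (Treg) that express Foxp3. Cells that do not take this path remain Tcon and can make cytokines such as IL-2.

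Reads counted in genes numbered 9754511 at the lowest, in lactic acid replicate 2, and 13049911 at the highest. Levels are given as CPM, which are counts scaled to a common library size, and values of 3 libraries are listed in the order of replicates 1, 2 and 3. On the first principal component of the 6 libraries, with 49.1% of the variance, the scores were -15, 33.9 and 35.6 with lactic acid and -58.4, -1.68 and 5.59 with TGF-beta alone. Replicate 1 thus had the lowest score in both groups, well below replicates 2 and 3, and TGF-beta replicate 1 lay furthest from the other libraries. Reads in no gene made up 8.29% ± 1.84 with lactic acid and 6.59% ± 0.77 with TGF-beta alone (SD, n = 3 each, two-sided exact permutation p = 0.2). Whether replicates 2 and 3 are separate animals is not stated in the labels, so p-values measure the spread between these samples, which may be partly technical.

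The libraries carried the markers of T cells. The summed level of 9 defining T cell genes was 3826, 4248 and 4400 CPM with lactic acid and 3096, 3772 and 3653 CPM with TGF-beta alone, higher with lactic acid in all 3 pairs (exact permutation p = 0.1, the smallest that 3 against 3 allows). Cd4 itself was at 640, 580 and 611 CPM with lactic acid, against 576, 562 and 584 CPM with TGF-beta alone, and did not pass the test. Of the 9 genes, Thy1, a surface antigen of T cells, Cd3g, a chain of the CD3 complex, and the T cell receptor constant genes Trbc1 and Trbc2 passed as higher, and Thy1 rose most, with a log2 fold change of 0.53 ± 0.11 (SE). Foxp3 was detected in the RFP-negative cells, at 49.1, 59.8 and 35.7 CPM with lactic acid, against 15.4, 35.6 and 19.2 CPM with TGF-beta alone. In the RFP-positive Treg it was at 363, 572 and 467 CPM with lactic acid, against 153, 303 and 215 CPM with TGF-beta alone, above every Tcon library. In bulk RNA, fewer cells of a type and less RNA per cell cannot be told apart.

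Markers of other blood cells were low, with exceptions that moved with lactic acid. The B cell sum over 11 genes was 184.9, 193.5 and 185.1 CPM with lactic acid, against 102.4, 106 and 85.6 CPM with TGF-beta alone. Nearly all of it was Ighm, the immunoglobulin mu heavy chain locus, at 184, 189 and 183 CPM against 100, 102 and 83 CPM with TGF-beta alone. The defining B cell genes Ms4a1, Cd79a and Pax5 had 2, 6 and 1 counts over the 3 lactic acid libraries and 2, 3 and 1 over the 3 libraries with TGF-beta alone. The sum over 10 markers of CD8 T cells and natural killer cells was 94.4, 149.4 and 157.6 CPM with lactic acid, against 41.2, 92.2 and 96.9 CPM with TGF-beta alone. It was higher with lactic acid in all 3 pairs, although the groups overlapped (exact permutation p = 0.2). Within it Klrd1, Klrk1, Eomes and Gzma passed as higher, while Cd8a and Cd8b1 did not pass, and Klra8 was at 0 in all 6 libraries. The myeloid and dendritic sum over 15 markers was 50.1, 34.3 and 29.2 CPM with lactic acid, against 166.9, 64.9 and 61.2 CPM with TGF-beta alone. That sum was mostly Cd74, the MHC class II invariant chain, and Cd14, Siglech, Clec9a, S100a8, S100a9 and Mpo were at 0 in all 6 libraries. Erythroid and platelet markers summed to at most 1.34 CPM in a library. The part of these sums in the results below was not tested.

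**Figure D1:**
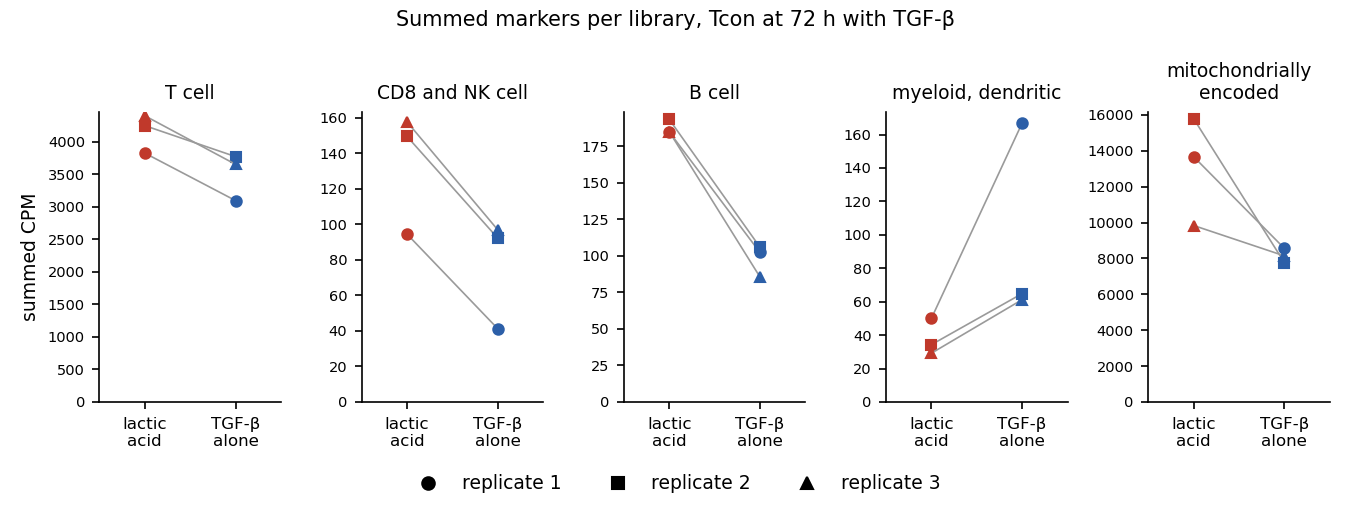
Summed CPM of marker genes in each of the 6 libraries (y axes, CPM, each panel with its own scale from 0), with lactic acid on the left and TGF-beta alone on the right, and lines joining libraries of the same replicate number. The T cell, CD8 and NK cell, B cell and mitochondrially encoded sums were higher with lactic acid in all 3 pairs, and the myeloid sum was lower in all 3.

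In all, 2211 of 14375 genes, or 15.4%, passed the paired test (edgeR, adjusted p below 0.05). Of these, 963 (6.7% of genes tested) were higher with lactic acid and 1248 (8.68%) were lower. At least a 2-fold change was seen in 155 of the higher and 359 of the lower genes, so large changes were mostly falls. The median log2 fold change over all genes was 0.01. Without pairing, 107 genes (0.744%) were higher and 204 (1.42%) lower, all of them among the 2211. Of these 311 genes, 301 also passed the paired test with any 1 of the 6 libraries left out. The paired count fell to 1434 without TGF-beta replicate 1. In 2180 of the 2211 genes the direction was the same in all 3 pairs, which the paired test favours by its design, so this is not separate support. Of all genes, 2411 (16.8%) had groups that did not overlap.

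The Gimap genes rose as a family. They encode GTPases of immunity-associated proteins, which sit on intracellular membranes of lymphocytes and are known for their part in lymphocyte survival. All 8 members measured passed as higher in the paired and in the unpaired test, in every fit without 1 library or 1 pair, and in all 3 pairs. The median log2 fold change of the family was 1.09, against 0.01 over all genes. Gimap7 was at 17.4, 15.1 and 18.1 CPM with lactic acid, against 1.56, 2.66 and 3.72 CPM with TGF-beta alone. Gimap4 was at 303, 337 and 316 CPM with lactic acid, against 111, 125 and 102 CPM. Gimap8, the longest member of the family, was at 110, 99.6 and 85.1 CPM with lactic acid, against 65.1, 39.5 and 36.4 CPM. The groups were separate for each of these genes, and the lactic acid libraries lay close together for Gimap7 and Gimap4. Log2 fold changes were 2.69 ± 0.24 for Gimap7, 1.52 ± 0.08 for Gimap3, 1.51 ± 0.11 for Gimap4 and 1.10 ± 0.12 for Gimap8 (SE). The smallest was that of Gimap9, at 0.70. Gimap3 and Gimap5 are similar enough that reads may be split between them.

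Ly6 surface antigens, small lipid-anchored proteins of lymphocytes and other blood cells, moved the same way: 4 of 6 measured members rose and none fell, and 2 rose without pairing. Ly6c1, a marker of memory and effector T cells, was at 16.3, 20.5 and 13 CPM with lactic acid and at 1.4, 1.64 and 1.82 CPM with TGF-beta alone, the largest rise of any gene that met the naming rule (log2 fold change 3.36 ± 0.23, SE). Its near-copy Ly6c2 was at 3.83, 4.52 and 2.12 CPM with lactic acid and at 2.38, 1.41 and 1.5 CPM with TGF-beta alone, and its call was kept in only 1 of the 6 fits without 1 library. Ly6a, the stem cell antigen Sca-1, was at 537, 801 and 823 CPM with lactic acid and at 204, 360 and 316 CPM with TGF-beta alone. Ly6e, which is interferon-induced, had a log2 fold change of 1.06 ± 0.10 and overlapping groups. Reads may be split between Ly6c1 and Ly6c2.

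Among single genes, the other large rises joined enzymes, transporters and regulators. Gzmb, the serine protease granzyme B of cytotoxic granules, was at 263, 288 and 308 CPM with lactic acid, against 59.5, 101 and 153 CPM with TGF-beta alone (log2 fold change 1.51 ± 0.23). Of 12 cytotoxic genes 3 rose, and the other two, the granzyme Gzma and the pore former Prf1, had log2 fold changes of 1.56 and 1.20 and did not pass without pairing. The CD8 and NK cell sum given above was higher in the same pairs, and its part in this was not tested. Upp1, which splits uridine into uracil and ribose phosphate, was at 22.9, 15.6 and 10.9 CPM with lactic acid, against 6.16, 4.61 and 3.8 CPM. Abcb9, a peptide transporter of lysosomes, was at 38.6, 39.5 and 47.3 CPM with lactic acid, against 8.46, 17.6 and 13.6 CPM. All 3 genes had separate groups. Hic1, a transcriptional repressor, and Plin2, a coat protein of lipid droplets, rose by 1.53 ± 0.14 and 1.29 ± 0.17 on the log2 scale, and Tmem273 and Tm6sf1, membrane proteins, by 1.53 and 1.37.

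**Figure D2:**
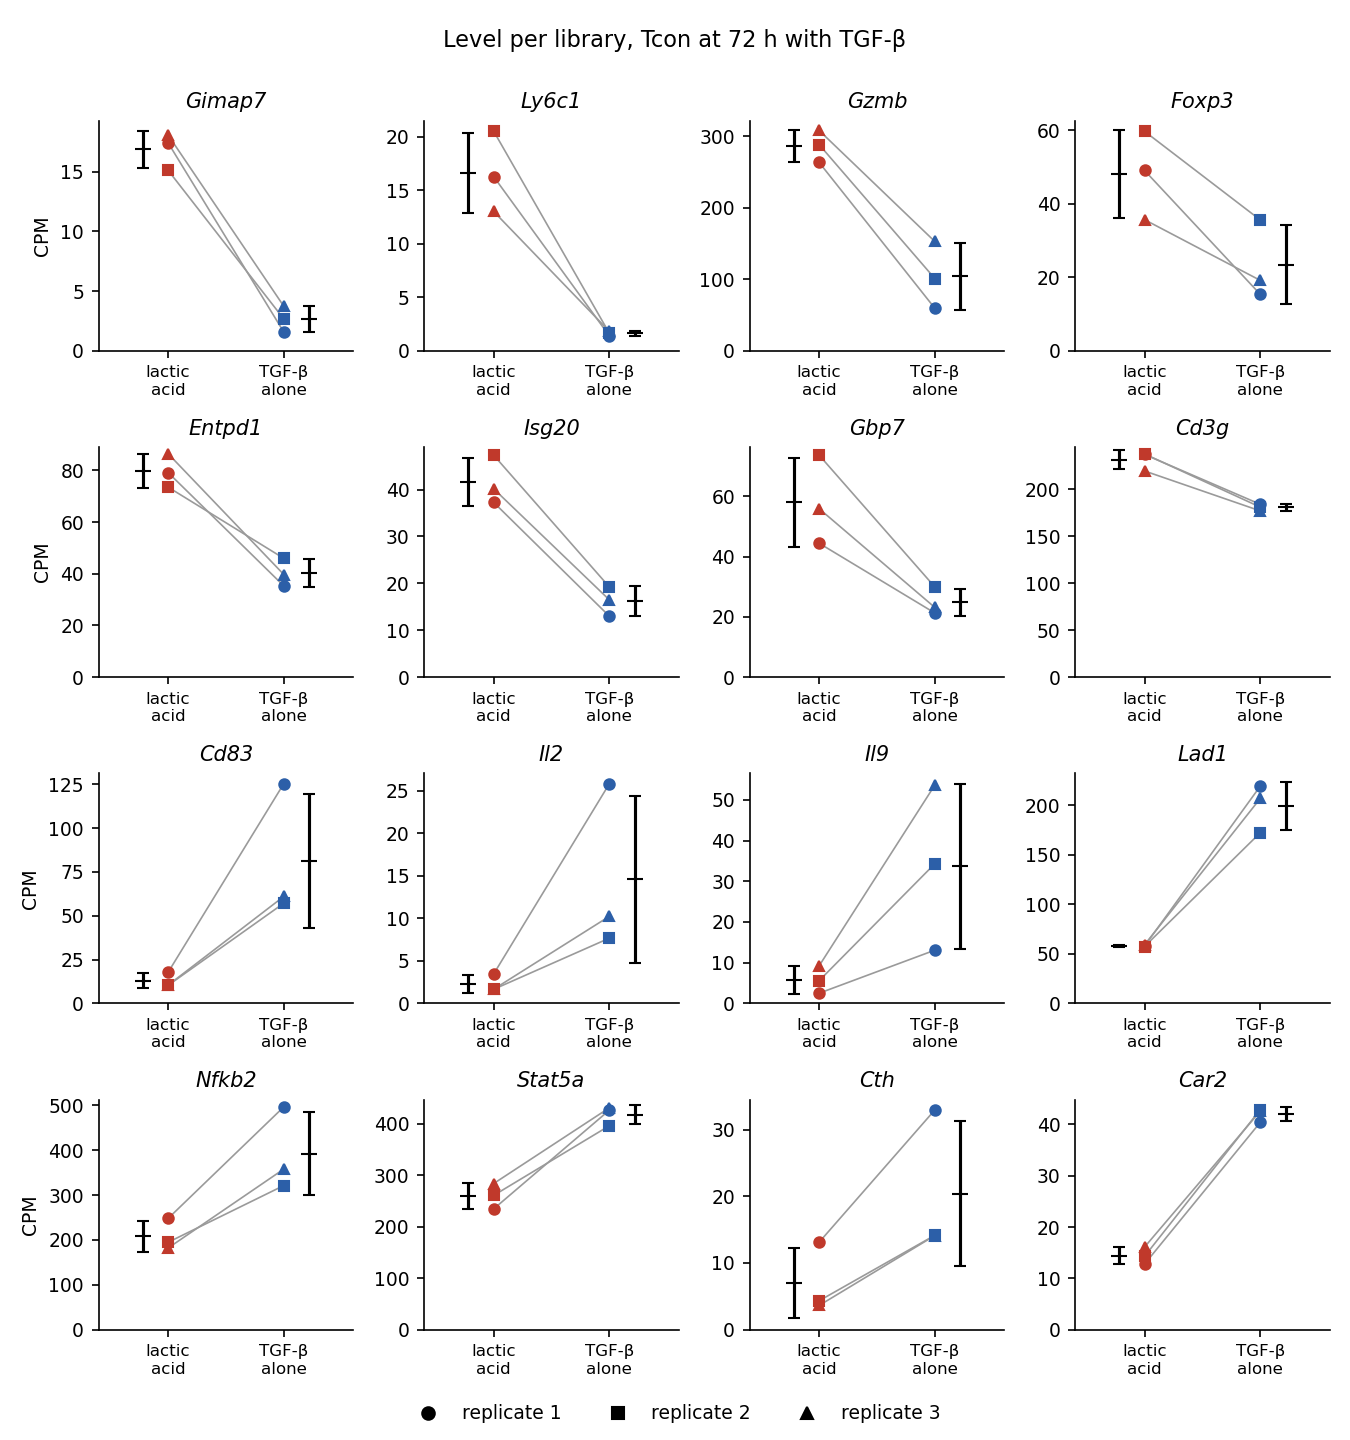
CPM of 16 genes in each of the 6 libraries (y axes, CPM from 0, each panel with its own scale), with lactic acid on the left and TGF-beta alone on the right. Symbols are libraries by replicate number, grey lines join pairs, and black bars are the mean and SD of 3 libraries. The first 8 genes were higher and the last 8 lower with lactic acid in all 3 pairs, and TGF-beta replicate 1 was the highest library for Cd83, Il2 and Cth.

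Genes of the interferon response were mostly higher. Interferons act through STAT and IRF transcription factors and raise antiviral effectors, the guanylate-binding proteins (GBP) and the MHC class I machinery. All 18 GBP and immunity-related GTPases measured rose in the paired test, with a median log2 fold change of 0.98. Of 47 other interferon-induced genes 32 rose and 1 fell, Ifih1, a sensor of double-stranded RNA (-0.72 ± 0.15), with a median of 0.72. Of 23 genes of MHC class I and antigen processing 17 rose and 1 fell, the chaperone Calr (-0.30 ± 0.07), with a median of 0.35. In the unpaired test 3, 3 and 2 members of these lists rose and none fell. The paired counts with 1 library left out were 14 to 18 for the GTPases, 26 to 32 for the interferon-induced genes and 16 to 17 for the MHC class I genes.

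Gbp7, a GBP of antimicrobial defence, was at 44.5, 73.7 and 56 CPM with lactic acid and at 21.3, 29.9 and 23.1 CPM with TGF-beta alone (log2 fold change 1.22 ± 0.19). Irgm1, an immunity-related GTPase that was picked after its values were seen, was at 155, 276 and 252 CPM with lactic acid and at 80.6, 153 and 132 CPM with TGF-beta alone (0.91 ± 0.12). Replicate 1 was the lowest library of each group for both genes. Gbp10 rose by 1.58 ± 0.21, Gbp8 by 1.16 and Gbp9 by 1.08. Isg20, an antiviral exonuclease, was at 37.3, 47.4 and 40.2 CPM with lactic acid and at 13, 19.2 and 16.5 CPM with TGF-beta alone, and passed both tests. Ifit1bl1, of the IFIT family of RNA-binding antiviral proteins, was at 5.19, 17.4 and 10.6 CPM with lactic acid and at 1.4, 3.75 and 3.56 CPM with TGF-beta alone. Ifi206, of the PYHIN family of DNA sensors, rose by 1.66 ± 0.22 and Xaf1, a promoter of apoptosis, by 1.12 ± 0.22. Among MHC class I genes, Nlrc5, the transactivator of the pathway, was at 403, 544 and 452 CPM with lactic acid and at 260, 299 and 307 CPM with TGF-beta alone (0.69 ± 0.08, passing both tests). H2-Q7, a non-classical class I molecule, and Psmb10, a subunit of the immunoproteasome, rose by 0.67 ± 0.12 and 0.54 ± 0.09, and the adjusted p without pairing was 0.062 and 0.45. For Gbp7, Gbp8, Gbp9, Irgm1, Ifit1bl1, Ifi206 and Xaf1 it lay between 0.065 and 0.25. GBP and H2 genes have close copies, so reads may be split within these families.

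Promoters of these genes were read from a RefSeq table of the assembly GRCm38.p6, matched by symbol, while the counts were made on GRCm39. The 250 bases before each gene's start were searched on both strands for TTCNNTTTC, the core of the interferon response element. All 10 of the 18 GTPases that have an entry in the table held it, as did 18 of 36 interferon-induced genes and 4 of 20 MHC class I genes, against 7.4% of the 9909 tested genes with an entry. None of the 8 Gimap promoters held it. The STAT motif TTCNNNGAA was in 6 of the 10 GTPase promoters and 6 of the 36 interferon-induced ones, against 7.17% of tested genes. It was also in 2 of 20 MHC class I, 2 of 8 Gimap, 4 of 18 NF-kappaB and 6 of 35 ATF4 promoters. Gbp7 and Igtp, an immunity-related GTPase at 461, 607 and 544 CPM with lactic acid and 245, 377 and 321 CPM with TGF-beta alone, are shown as examples, as the 150 bases that end just before the start, with the match in capitals.
Gbp7, chr3:142530186-142530335, plus strand: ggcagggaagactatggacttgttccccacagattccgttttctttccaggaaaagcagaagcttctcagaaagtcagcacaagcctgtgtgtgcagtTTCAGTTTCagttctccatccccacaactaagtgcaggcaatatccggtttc
Igtp, chr11:58199406-58199555, plus strand: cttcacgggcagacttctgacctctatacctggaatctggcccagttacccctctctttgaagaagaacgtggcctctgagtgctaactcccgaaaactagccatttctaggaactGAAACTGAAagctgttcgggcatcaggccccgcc
A match is a description of the letters in the window and not a measured binding site.

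**Figure D3:**
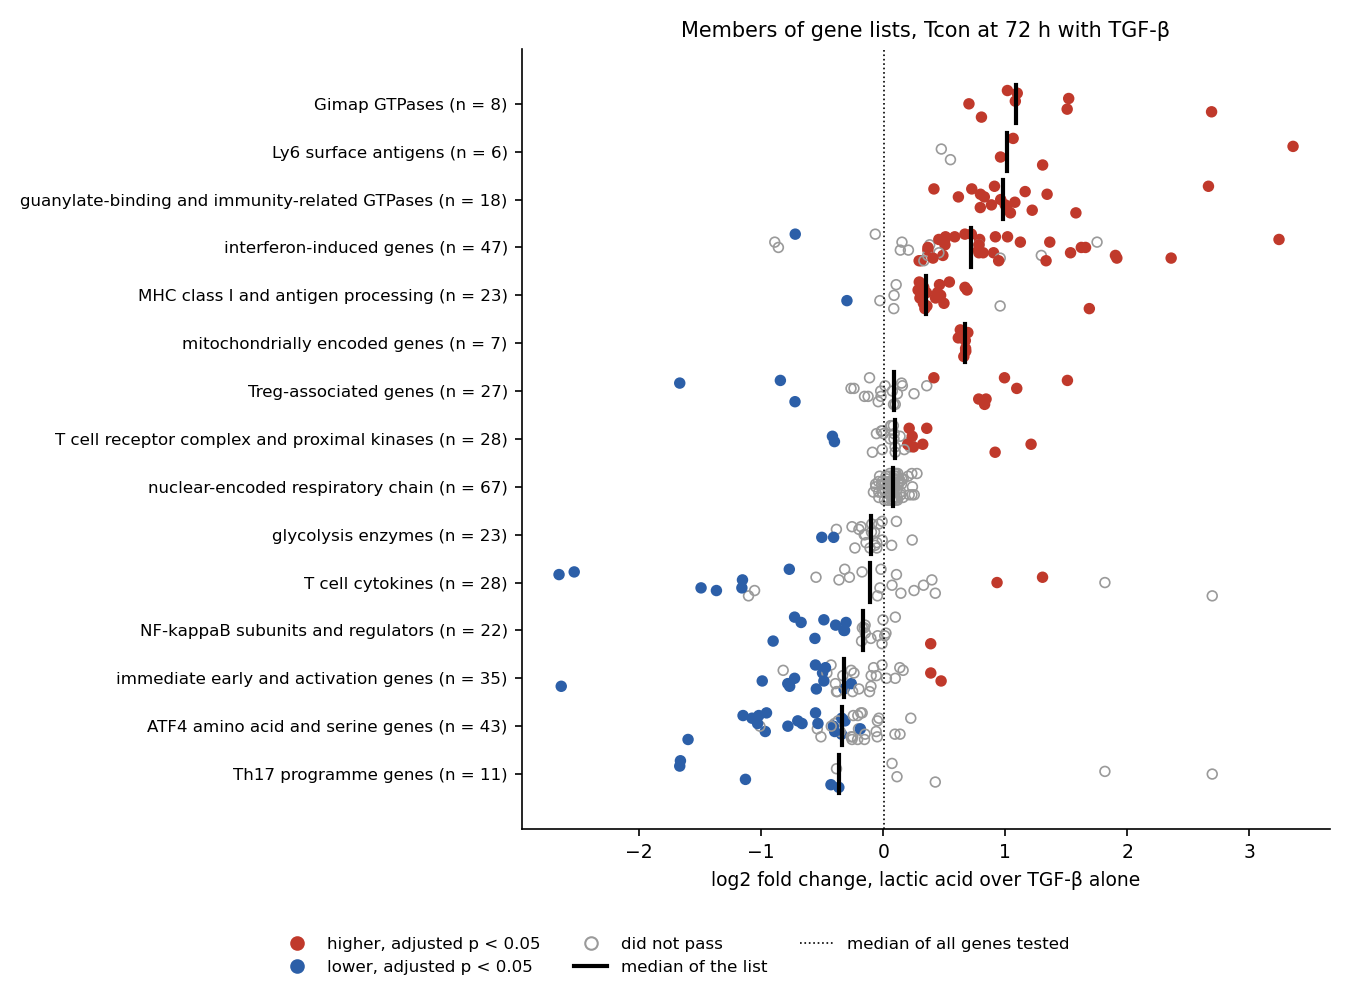
Log2 fold change (x axis, lactic acid over TGF-beta alone) of every tested member of 15 gene lists (rows, with the number tested). Red and blue points passed the paired edgeR test as higher and lower, open points did not pass, thick bars are list medians and the dotted line is the median of all genes. All points of the Gimap, GTPase and mitochondrially encoded rows are red, and none of the nuclear-encoded respiratory chain passed.

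Cytokine genes of activated T cells fell where they passed, with a pair of exceptions. Of 28 measured, 7 fell and 2 rose in the paired test, and 3 fell in the unpaired one. Il2, the T cell growth factor, was at 3.43, 1.64 and 1.65 CPM with lactic acid, against 25.8, 7.66 and 10.2 CPM with TGF-beta alone (log2 fold change -2.66 ± 0.44). Il9, a cytokine that TGF-beta promotes together with IL-4, was at 2.48, 5.55 and 9.18 CPM with lactic acid, against 13.1, 34.3 and 53.6 CPM (-2.53 ± 0.20). Replicate 1 was the highest TGF-beta library for Il2 and the lowest for Il9, while the fall was seen in all 3 pairs of both. Tnfsf8, the CD30 ligand, was at 43, 42.1 and 38.3 CPM with lactic acid, against 166, 87.9 and 84.5 CPM (-1.37 ± 0.20; adjusted p without pairing 0.063). Tgfb3, a TGF-beta isoform, was at 23.5, 13.2 and 13.3 CPM with lactic acid, against 3.45, 7.11 and 9.42 CPM (1.3 ± 0.30; 0.059 without pairing). The other gene that rose was Lif, a cytokine of the IL-6 family, at 304, 662 and 644 CPM with lactic acid and 108, 398 and 425 CPM with TGF-beta alone (0.93 ± 0.17; 0.55 without pairing). Of 10 chemokines 3 fell, Ccl20, the ligand of CCR6 (-1.13 ± 0.19), and the inflammatory chemokines Ccl4 and Ccl3 (-0.56 ± 0.12 and -0.46 ± 0.16). None of the 3 passed without pairing, and the Ccl3 call was kept in 2 of the 6 fits without 1 library.

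Some genes of NF-kappaB and of early activation fell, while most members of both lists did not pass. NF-kappaB proteins are induced by T cell receptor and CD28 signals, and several of them are encoded by their own target genes. Of 22 NF-kappaB subunits and regulators 9 fell and 1 rose in the paired test, and 6 fell in the unpaired one, with a median log2 fold change of -0.16. Nfkb2, the p100 precursor of the non-canonical pathway, was at 248, 195 and 182 CPM with lactic acid, against 497, 321 and 358 CPM with TGF-beta alone (-0.90 ± 0.07). Rel, the c-Rel subunit, was at 172, 139 and 143 CPM with lactic acid, against 288, 213 and 253 CPM (-0.73 ± 0.08). Nfkbia, the inhibitor IkB-alpha, fell by 0.67 ± 0.10 on the log2 scale, with separate groups. Relb, the partner of p52, fell by 0.56 ± 0.09 and had overlapping groups and an adjusted p of 0.16 without pairing. The gene that rose was Bcl3, an atypical IkB protein (0.39 ± 0.08; 0.13 without pairing). The count of falls was 8 or 9 with any 1 library left out. Of 35 early and activation genes 12 fell and 2 rose, Myc and Jun, with a median of -0.32, and 4 fell and none rose without pairing. Cd83, an activation-induced surface protein that limits signals in T cells, was at 17.7, 10.3 and 10.4 CPM with lactic acid, against 126, 57.2 and 61.1 CPM (-2.64 ± 0.13). Egr2, a transcription factor of T cell receptor signals, was at 73.7, 49.9 and 57.1 CPM with lactic acid, against 182, 80.8 and 109 CPM (-0.99 ± 0.10; 0.062 without pairing). Nr4a2, an orphan nuclear receptor, and Cd40lg, the ligand of CD40, fell by 0.77 ± 0.16 and 0.78 ± 0.12 on the log2 scale. Every library with lactic acid was below every library with TGF-beta alone for Cd83, Egr2, Nr4a2 and Cd40lg.

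The NF-kappaB motif GGGNNTTCC was in the promoters of 8 of 18 NF-kappaB genes with an entry in the RefSeq table, against 7.49% of tested genes. The motif was also in 5 of 20 MHC class I promoters, a list that mostly rose, and in 3 of 36 interferon-induced ones. None of the GTPase, Gimap or ATF4 promoters held it. The Nfkb2 promoter that holds it is printed here, with the letters of 3 matches in capitals, 2 of which overlap.
Nfkb2, GRCm38.p6, chr19:46304587-46304736, plus strand: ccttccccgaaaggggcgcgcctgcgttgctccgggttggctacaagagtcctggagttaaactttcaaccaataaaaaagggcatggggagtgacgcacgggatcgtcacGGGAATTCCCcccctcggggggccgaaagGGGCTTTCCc

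Genes linked to Treg were divided. Of 27 measured, 7 rose and 3 fell in the paired test, against 2 and 1 without pairing, with a median log2 fold change of 0.08. Foxp3, the lineage factor of Treg, whose levels are given above, rose by 1.09 ± 0.15 in these RFP-negative cells (adjusted p = 2.1e-05, and 0.0502 without pairing). Its rise in the RFP-positive Treg was 1.09 ± 0.12, and the difference between the effects did not pass. Entpd1, the ectonucleotidase CD39, was at 79.2, 73.5 and 86.5 CPM with lactic acid and at 35.2, 45.9 and 39.7 CPM with TGF-beta alone, and passed both tests. Foxp3 had barely separate groups, at 35.7 against 35.6 CPM, and Entpd1 widely separate ones. Gzmb and the inhibitory receptor Tigit (0.83 ± 0.15; 0.11 without pairing) also rose. The genes that fell included Nrp1, neuropilin-1 (-0.84 ± 0.17), and Ikzf2, Helios (-0.72 ± 0.11; 0.062 without pairing). Il2ra, the IL-2 receptor alpha chain, did not pass, at 1869, 1879 and 2169 CPM with lactic acid and 1386, 2065 and 2228 CPM with TGF-beta alone. Stat5a, which carries the IL-2 signal, fell by 0.69 ± 0.06 on the log2 scale, at 234, 260 and 284 CPM with lactic acid and 426, 396 and 431 CPM with TGF-beta alone. Socs3 and Socs1, inhibitors of cytokine signals, rose by 0.78 ± 0.10 and 0.65 ± 0.18, and Socs1 missed the threshold without pairing (0.64).

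Of 29 TGF-beta receptors, Smads and targets 3 rose and 5 fell, against 0 and 1 without pairing, with a median of -0.07. The receptor genes Tgfbr1 and Tgfbr2 and the receptor-regulated Smads Smad2 and Smad3 did not pass, with log2 fold changes between -0.24 and 0.03. Tgif1, a co-repressor of Smads, fell by 0.78 ± 0.13, and Tgfbr3, the co-receptor betaglycan, by 0.48 ± 0.08 on the log2 scale. Ctla2a, a cysteine protease inhibitor induced by TGF-beta, rose by 0.83 ± 0.20. Tgfbr3 alone of these 3 passed without pairing.

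The helper programmes moved in part. Of 11 Th17 genes 5 fell and none rose, Ccr6, Ccl20 and Ahr among them. Ccr6, a chemokine receptor of Th17 cells, was at 10.1, 4.21 and 6.36 CPM with lactic acid, against 30.7, 13.6 and 19.6 CPM with TGF-beta alone (-1.66 ± 0.19). None of the 5 passed without pairing, and 3 fell without TGF-beta replicate 1, TGF-beta replicate 2 or lactic acid replicate 1. Of 13 Th1 genes 5 rose, 2 of them also without pairing, among them Txk, a Tec kinase (1.21 ± 0.09), and Eomes, a T-box factor (0.73 ± 0.21). The receptor chains of IL-18, Il18r1 and Il18rap, fell by 1.05 ± 0.11 and 0.84 ± 0.16, and Tbx21 and Ifng did not pass (0.12 and -0.36). Of 12 Th2 genes 2 fell, Il9 and Ccr4, a chemokine receptor (-0.57 ± 0.11), and 1 rose, Maf, a transcription factor (0.60 ± 0.14). Without pairing, Txk and Il9 passed and Eomes, Il18r1, Il18rap, Ccr4 and Maf did not (adjusted p of 0.11 to 0.48).

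Surface receptors of homing and co-stimulation changed in both directions in the paired test, and few of these calls were kept without pairing. Itga4, an integrin chain, and Cxcr6, a chemokine receptor, rose by 0.91 ± 0.19 and 0.79 ± 0.16, and 5 of 24 homing receptors rose in all while 4 fell, none of them without pairing. Of 27 genes of naive and quiescent cells 7 rose and 8 fell, against 0 and 2 without pairing. Tcf7, Lef1 and Ccr7 did not pass (log2 fold changes of 0.02 to 0.09). Of 20 co-stimulatory genes 3 rose and 6 fell, against 0 and 2 without pairing, including Tnfsf4, the OX40 ligand, at 8.22, 9.14 and 9.03 CPM with lactic acid against 38, 21.5 and 17.9 CPM (-1.49 ± 0.22). Of 15 inhibitory receptors and ligands 3 rose and 5 fell, against 0 and 2 without pairing. Cd160 was at 3.99, 6.57 and 4.63 CPM with lactic acid against 17.3, 11.2 and 11 CPM (-1.38 ± 0.22). Cd200 was at 64.3, 65.2 and 64.7 CPM with lactic acid against 112, 104 and 111 CPM (-0.75 ± 0.07). Lair1, a collagen receptor, rose by 1.09 ± 0.15, with an adjusted p of 0.062 without pairing.

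Other large falls were in genes outside the lists. Lad1, the filament protein ladinin, was at 57.7, 57.3 and 59 CPM with lactic acid, against 219, 172 and 207 CPM with TGF-beta alone (-1.78 ± 0.12). Scin, an actin-severing protein, was at 2, 1.85 and 1.26 CPM with lactic acid, against 12.4, 10.4 and 7.52 CPM. Tead1, a transcription factor of the Hippo pathway, was at 8.46, 6.47 and 6.36 CPM with lactic acid, against 21.9, 20.9 and 25.8 CPM. The lactic acid libraries of all 3 genes lay in a narrow range below every library with TGF-beta alone. Sh3bp4, an adaptor of endocytosis, had a log2 fold change of -2.62 ± 0.22, Col5a1, a collagen chain, -2.28, and Papss2, which makes the sulfate donor PAPS, -1.95. Fnbp1l, a membrane-bending adaptor, St8sia6, a sialyltransferase, Kynu, an enzyme of tryptophan breakdown, and Tex15, a gene of meiosis, had -1.87, -1.81, -1.71 and -1.68. All of these genes passed both tests, as the naming rule requires.

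Enzymes that make or use lactate and glucose changed little. Of 23 glycolysis genes 2 fell, the glucose transporter Slc2a3 (-0.50 ± 0.13; 0.79 without pairing) and Pfkfb3, which makes the activator of phosphofructokinase (-0.41 ± 0.08; 0.042 without pairing), and none rose. Of 20 genes of lactate and pyruvate handling 1 rose and 2 fell, against 0 and 1 without pairing. Ldha and the lactate transporters Slc16a1 and Slc16a3 did not pass, with log2 fold changes of 0.07, -0.16 and -0.07. Mpc1, a subunit of the mitochondrial pyruvate carrier, fell by 0.47 ± 0.11, at 11.4, 11.6 and 10.5 CPM with lactic acid and 17, 14.2 and 15.1 CPM with TGF-beta alone. Of 25 genes of proton sensing and acid handling 4 rose and 5 fell, against 0 and 4 without pairing. Car2, a carbonic anhydrase, was at 12.8, 14.3 and 16.1 CPM with lactic acid and at 40.4, 42.9 and 42.6 CPM with TGF-beta alone, a fall of 1.54 ± 0.16 with little spread in either group. The proton-sensing receptors Gpr65 and Gpr132 did not pass. Slc2a6, a transporter of the glucose transporter family, was at 9.02, 12.5 and 8.95 CPM with lactic acid and at 35.3, 29.4 and 31 CPM with TGF-beta alone. Of 23 fatty acid oxidation genes 6 rose and 1 fell, against 1 and 0 without pairing, and 2 to 4 rose with any 1 of the 6 libraries left out. Of these, Cpt1a, the carnitine transferase that lets fatty acids enter mitochondria, rose by 0.72 ± 0.11 and passed both tests. Of 16 genes of fatty acid synthesis and desaturation 1 rose and 4 fell, against 0 and 1 without pairing, with a median of -0.04. The desaturases Fads2, Scd1 and Scd2 fell by 0.87 ± 0.14, 0.67 ± 0.21 and 0.43 ± 0.10 on the log2 scale, and Fads2 alone of these passed without pairing. The gene of this list that rose was Elovl6 (0.61 ± 0.12; 0.28 without pairing). Of the 25 pentose phosphate and salvage genes 3 rose, of which Upp1 alone passed without pairing, and of 31 citrate cycle genes 1 rose and 2 fell, none of them without pairing.

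The mitochondrially encoded transcripts passed as higher in the paired test, while the nuclear genes of the same respiratory complexes did not pass. All 7 mitochondrially encoded genes tested rose in the paired test, by 0.61 to 0.69, and none passed without pairing. The other 6 had no counts in these libraries. The median of the 7 was 0.67 here, against -0.18 in Treg with TGF-beta at 72 h. It was 0.25 in Tcon without TGF-beta at 72 h and -0.01 in Tcon with TGF-beta at 24 h. The difference between lactic acid effects passed for 1 of the 7 against 24 h, and for none against Treg or against medium without TGF-beta. Of 67 nuclear-encoded genes of the respiratory chain none passed, with a median of 0.08. Among these 67, 16 were higher in all 3 pairs and 0 were lower in all 3. The difference between the nuclear and the mitochondrially encoded genes was not tested. The mitochondrial share of gene counts was 1.40% ± 0.35 with lactic acid and 0.88% ± 0.08 with TGF-beta alone (SD, n = 3 each, exact permutation p = 0.1). The count of 7 fell to 1 without TGF-beta replicate 2, to 2 without lactic acid replicate 2, to 3 without lactic acid replicate 1 and to 4 without TGF-beta replicate 1. The share of reads in no gene was highest in lactic acid replicate 2, which also had the highest mitochondrial share; its part in this result was not tested.

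The genes of the ATF4 response, which supplies amino acids under stress, fell where they passed. Of 43 measured, 18 fell, none rose and 25 did not pass in the paired test, with a median of -0.34, and 1 fell in the unpaired one. Stc2, a secreted glycoprotein, was at 50.7, 28.6 and 31.5 CPM with lactic acid, against 93.7, 68.1 and 80.1 CPM with TGF-beta alone (-1.15 ± 0.14) and was the member that passed both tests. Cth, which makes cysteine from cystathionine, was at 13.1, 4.31 and 3.61 CPM with lactic acid, against 32.9, 14.1 and 14.1 CPM (-1.60 ± 0.24; 0.22 without pairing). Slc7a3, a carrier of cationic amino acids, was at 43.8, 12.2 and 12.8 CPM with lactic acid, against 68.8, 29 and 33.4 CPM (-1.03 ± 0.18; 0.48 without pairing). Replicate 1 was far above the others in both groups for Cth and Slc7a3, so the difference appears within pairs and less between groups. Nupr1, a stress-induced chromatin protein, fell by 1.08 ± 0.18, and Atf4 itself by 0.34 ± 0.11. The count of 18 was 10 without TGF-beta replicate 2 or lactic acid replicate 3 and 24 without TGF-beta replicate 1.

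The composite element of ATF4, searched as TGATGNAAN, was in the promoters of 9 of 35 ATF4 genes with an entry, against 2.45% of tested genes. Slc7a11, the cystine carrier, was chosen to show it after its values were seen, and was at 10.9, 4.11 and 3.22 CPM with lactic acid and at 17.9, 7.11 and 9.03 CPM with TGF-beta alone (-0.96 ± 0.24; 0.53 without pairing). Both matches are in capitals.
Slc7a11, GRCm38.p6, chr3:50443614-50443763, minus strand: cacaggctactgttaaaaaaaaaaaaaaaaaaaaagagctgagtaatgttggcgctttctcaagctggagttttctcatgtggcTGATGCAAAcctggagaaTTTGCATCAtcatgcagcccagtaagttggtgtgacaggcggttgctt
No interferon response core was in the 35 promoters of this list.

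Other stress and growth genes gave smaller or less even changes. Of 22 heat shock chaperones 7 fell and none rose, and 1 fell without pairing. Hspa1a and Hspa1b, near-identical HSP70 genes between which reads may be split, had the largest falls and the least even values. Hspa1a was at 0.479, 0.513 and 0.549 CPM with lactic acid, against 44.5, 11.2 and 0.792 CPM with TGF-beta alone, and Hspa1b at 0.878, 1.44 and 0.628 CPM against 60.1, 16.5 and 1.11 CPM. TGF-beta replicate 3 thus lay near the lactic acid libraries, and the adjusted p without pairing was 0.14 and 0.13. Hsf2, a heat shock factor, fell by 0.54 ± 0.09 and passed both tests. Of 24 genes of the unfolded protein response 6 fell, of which none passed without pairing. Of 16 Bcl-2 family genes 3 rose and 4 fell, none of which passed without pairing. The falls were in the BH3-only genes Bbc3 and Pmaip1 (-0.82 ± 0.18 and -0.74 ± 0.17) and the survival genes Bcl2l1 and Bcl2a1b (-0.47 and -0.68). Of 45 G2 and M phase genes 5 rose, of which none passed without pairing, and none fell. Their median was 0.18, and 1 rose without TGF-beta replicate 1 or lactic acid replicate 3, against 11 without lactic acid replicate 2. Of 46 DNA replication genes 1 rose, the helicase subunit Mcm7 (0.44 ± 0.10), and Cdkn1a, the inhibitor p21, fell by 0.61 ± 0.08. Neither passed without pairing. Of 28 genes of the T cell receptor complex and its kinases 8 rose and 2 fell, against 3 and 1 without pairing, with a median of 0.09, and without TGF-beta replicate 1 or lactic acid replicate 1 the count of rises was 3, and without TGF-beta replicate 3 it was 5. Besides Txk, the largest was in Sla2, an adaptor that dampens receptor signals (0.92 ± 0.16), and the falls were in the adaptors Lcp2 (SLP-76, -0.42 ± 0.08) and Sla (-0.40 ± 0.12).

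The same lactic acid effect was measured in 3 other settings that share no library with these 6, and the difference between effects was tested directly. In Treg sorted from TGF-beta medium at 72 h (3 libraries with and 3 without lactic acid), no gene (0%) differed from Tcon in its response by edgeR, 1081 had an unadjusted p below 0.05 and DESeq2 called 2. That does not show equal responses. Over the 963 genes higher in Tcon the median log2 fold change was 0.43 in Tcon and 0.36 in Treg, and over the 1248 lower genes -0.57 in Tcon and -0.51 in Treg. These genes were chosen because they passed in Tcon, which favours larger values there, so the medians do not compare the size of the responses. Of the 14375 genes, 1425 passed as higher and 1408 as lower in Treg itself. Tcon and Treg libraries with 1 number are from mice of 1 sex and are not independent of each other. Tle1, a transcriptional co-repressor, was among the 5 genes with the smallest p for this difference, at 10.6, 10.2 and 10.5 CPM with lactic acid and 16.8, 17.5 and 17.9 CPM without it in Tcon. In Treg it was at 15.6, 17.4 and 16.8 CPM with lactic acid and 15.4, 16.3 and 16.3 CPM without it. Tead1, Cxcr6, Gpm6b, a membrane glycoprotein, and Ppm1l, a protein phosphatase, were the other 4, and the adjusted p of these 5 was 0.22 to 0.26.

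Tcon without TGF-beta at 72 h (3 libraries with and 2 without lactic acid) responded differently at 652 genes (4.54%). Of these, 286 had the higher log2 fold change with TGF-beta and 366 the lower. Without pairing 15 differed, and without replicate 1 of the group that had neither TGF-beta nor lactic acid 195 did. All 8 Gimap genes were among the 652, and the median of the family was 1.09 with TGF-beta and 0.04 without it. Gimap3 with TGF-beta was at 170, 180 and 156 CPM with lactic acid and 67.9, 55.2 and 54.1 CPM without it. In medium without TGF-beta it was at 181, 202 and 165 CPM with lactic acid and 215 and 199 CPM without it. For Gimap3 the TGF-beta libraries with lactic acid were thus near the level seen without TGF-beta, and those with TGF-beta alone were below it. Gimap7 had means of 16.9 CPM with TGF-beta and lactic acid and, without TGF-beta, 21.5 CPM with and 13.4 CPM without lactic acid. Gimap5 stayed lower, at a mean of 43.7 CPM with TGF-beta and lactic acid, against 76.9 and 84.1 CPM without TGF-beta. Lad1 in medium without TGF-beta was at 327, 444 and 380 CPM with lactic acid and 327 and 464 CPM without it, so the fall seen with TGF-beta had no counterpart there. Cd83 in medium without TGF-beta was at 195, 112 and 137 CPM with lactic acid and 229 and 136 CPM without it. Il2 in medium without TGF-beta was at 251, 129 and 252 CPM with lactic acid and 225 and 185 CPM without it. Of the 43 ATF4 genes 27 differed, with a median of -0.34 with TGF-beta and 0.32 without it. Cth was at 251, 75.9 and 177 CPM with lactic acid and 180 and 69.9 CPM without it in the absence of TGF-beta, above all 6 libraries with TGF-beta. Of the interferon-induced genes 14 of 47 differed (medians of 0.72 with TGF-beta and -0.02 without it), of the GTPases 3 of 18 and of the MHC class I genes 8 of 23. Foxp3 was at 0.307 CPM or below in the libraries without TGF-beta at 72 h, too low for a fold change.

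At 24 h with TGF-beta (3 libraries with and 3 without lactic acid) the response differed from that at 72 h at 483 genes (3.36%), 159 with the higher log2 fold change at 72 h and 324 with the lower. Without pairing 4 differed. Whether the times were run together is not stated in the labels. Ly6c1 at 24 h was at 29.4, 39.5 and 50.5 CPM with lactic acid and 22.6, 21.2 and 29.4 CPM without it, far above its level at 72 h with TGF-beta alone. Cxcr4, the receptor of CXCL12, had the opposite direction at the times: at 24 h it was at 24.9, 33.5 and 44.1 CPM with lactic acid and 13.9, 16.7 and 22.4 CPM without it, and at 72 h at 99.4, 48.1 and 40.6 CPM with and 107, 75.2 and 53.2 CPM without it. The groups overlapped at 72 h and were separate at 24 h. Zhx2, a transcriptional repressor, was at 78.8, 92.6 and 108 CPM with lactic acid and 95.9, 104 and 105 CPM without it at 24 h, and at 27.2, 19.4 and 20.3 CPM with and 73.2, 45.8 and 57.3 CPM without it at 72 h. Of the DNA replication genes 14 of 46 differed between the times and of the G2 and M phase genes 14 of 45, with medians at 72 h of 0.04 and 0.18 and at 24 h of -0.25 and -0.41. Of the interferon-induced genes 1 of 47 differed, with medians of 0.72 at 72 h and 0.49 at 24 h, which does not show equal responses.

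**Figure D4:**
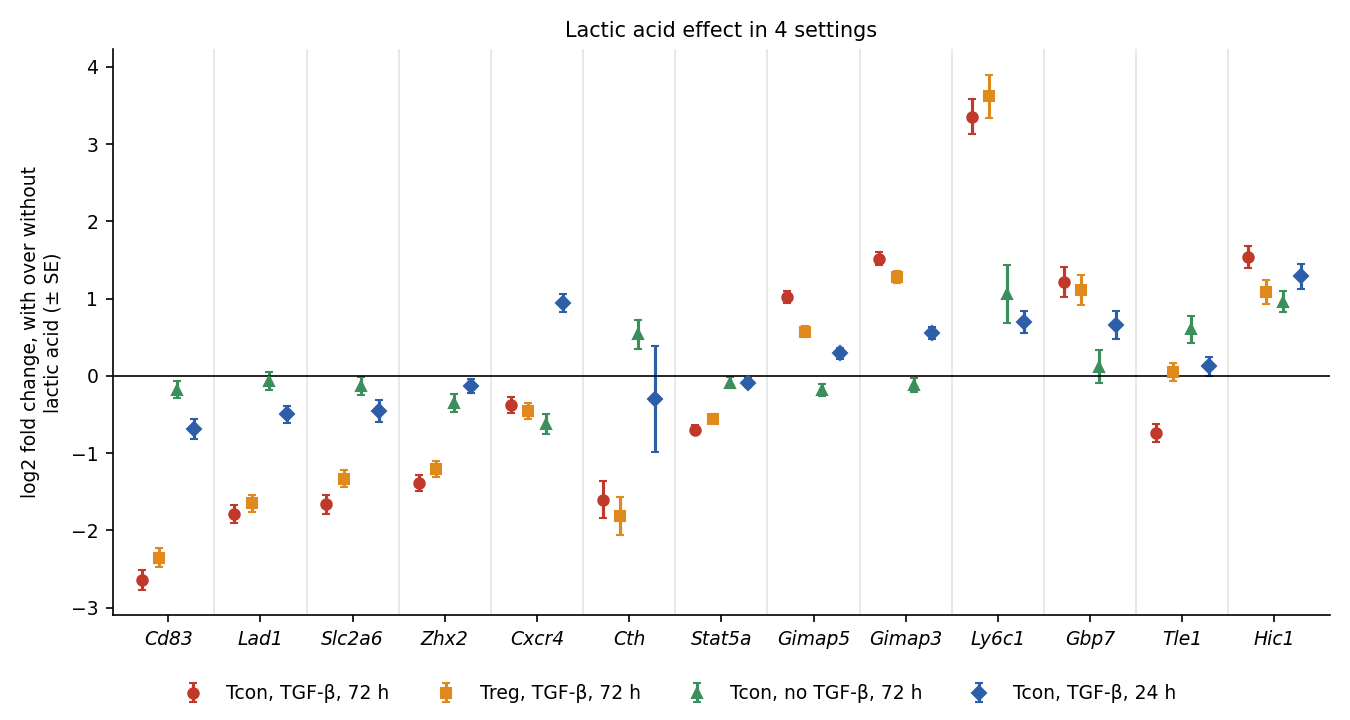
Log2 fold change of 13 genes (y axis, with over without lactic acid) in 4 settings: Tcon with TGF-beta at 72 h, Treg with TGF-beta at 72 h, Tcon without TGF-beta at 72 h and Tcon with TGF-beta at 24 h. Bars are the SE from the paired edgeR fit of all 29 libraries. Cd83 was at -2.64 in Tcon and -2.35 in Treg with TGF-beta at 72 h and at -0.18 without TGF-beta.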

How the data were processed

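The submitters sequenced polyadenylated RNA as single reads, using a strand-specific kit, per the labels' protocols, and named STAR 2.7.3a, the assembly GRCm39, HTSeq 0.12.4 and DESeq2 1.30.1, per the submitters' processing notes. The deposited values are raw counts of reads per Ensembl gene. How the counting treated strand, and its annotation release, is not stated in the labels, which leaves overlapping and antisense genes uncertain. Of 55414 identifiers, 52081 were matched to symbols through a table of another build, which served for nothing else. Summary entries of the counter entered neither library sizes nor tests. In the 6 libraries they held 14.7% to 15.9% low-quality alignments, 5.77% to 10.4% reads outside genes and 1.02% to 1.07% ambiguous reads.

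All 29 libraries entered 1 fit of edgeR 4.0.16 in R 4.3.3 (quasi-likelihood F test, TMM scaling, filterByExpr with a minimum count of 10 and a minimum total of 15, leaving 14375 genes), blocked by replicate number separately at each time. Genes with a Benjamini-Hochberg adjusted p below 0.05 over all genes are called. Log2 fold changes are lactic acid over TGF-beta alone and use the prior count of 0.125 of edgeR. The SE is the absolute log2 fold change over the root of F. CPM are scaled by TMM.

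The selection of libraries asks for pairing by replicate number. Numbers mark a shared sex, and the deviations of same-numbered libraries from their group means correlated across genes, with values of 0.57, 0.18 and 0.48 (0.52, 0.14 and 0.46 on autosomes). Libraries of different numbers correlated at -0.51 to 0.25, so the value of pair 2, 0.18, lay within their range. Because deviations are taken from group means, the positive and negative values are not independent of each other. Calls that ended in the unpaired fit are given with its adjusted p, by a statement in the text or by name in the closing section.

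Members, lists and alternatives were chosen with earlier results of these data known. The naming rule takes 14 protein-coding rises and 14 falls that pass both fits at a mean of 5 CPM or more with the same direction in all 3 pairs, up to 4 members per list, the 5 smallest p-values of each difference, and a panel of genes. Irgm1, Igtp, Slc7a11 and the genes said not to have passed, as well as list members outside these 4, were picked after their values were seen. The script was tested on simulated data. Alternatives were no block, DESeq2 1.42.0, RLE scaling, no filter, the 6 libraries or the 72 h libraries alone, and each library or pair left out.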

Additional observations from a re-analysis of the deposited data

Results flagged for a closer look

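Of the genes with the 5 smallest p-values for a difference between lactic acid effects, those that passed (edgeR, paired) are listed here because the effect of lactic acid differed between 2 settings. With TGF-beta minus without it at 72 h, the log2 fold change of lactic acid differed by -2.46 for Cd83, -1.72 for Lad1, -1.53 for Slc2a6, 1.63 for Gimap3 and 1.2 for Gimap5. At 72 h minus 24 h, both with TGF-beta, it differed by -1.95 for Cd83, -1.33 for Cxcr4, -1.26 for Zhx2, 2.66 for Ly6c1 and 0.962 for Gimap3. The group without TGF-beta and lactic acid at 72 h had 2 libraries.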

How the results depend on the processing

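The 2211 genes that passed the paired test became 311 without the replicate block, 1378 with the 6 libraries alone, 1358, 1412 and 1456 without pair 1, 2 or 3, and 1434 to 1840 without 1 library, the lowest without TGF-beta replicate 1. Of the genes the naming rule takes, 100 lost their call without the block. Besides those said in the text to do so, they or other genes that did were Thy1, Trbc1, Trbc2, Klrk1, Cd74, Ly6c2, Ly6e, Ifih1, Calr, Igtp, Myc, Jun, Cd40lg, Itga4, Cxcr6, Nupr1, Atf4, Sla and Cxcr4. For the difference from Treg the count was 0, against 2 by DESeq2, 197 with no filter on low counts, 2 with the 72 h libraries alone and 0 to 3 without 1 library. For the difference between media with and without TGF-beta it was 652, against 15 with no replicate block, 1085 with no filter, 207 with the 72 h libraries alone and 195 to 955 without 1 library. It was lower by over 1.5 times without TGF-beta replicate 1 or 2, lactic acid replicate 3, or replicate 1 of the group with neither. For the difference between the times it was 483, against 4 with no replicate block, 982 with no filter and 142 to 529 without 1 library, and lower by over 1.5 times without 72 h TGF-beta replicate 1 or 2, 72 h lactic acid replicate 3, any 24 h TGF-beta library or 24 h lactic acid replicate 2 or 3. The causes were not tested. Of the genes named, Trbc1, Trbc2, Eomes, Ly6c2, Ccl3, Myc, Jun, Socs1, Ahr, Slc2a3, Scd1, Atf4, Slc7a11, Hspa1a, Hspa1b, Pmaip1, Bcl2a1b, Sla and Cxcr4 lost their call in at least 1 of the 6 fits without 1 library. Il2ra, which did not pass, had a log2 fold change of -0.0852 without pair 1 and of -0.0754 to 0.233 without 1 library. The other genes taken by the naming rule kept their direction under the alternatives run. Depth limits genes near the filter most, such as Gbp2b and Ifit3b.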
